A study of Rattus norvegicus with 12 samples.

Results

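Metallothioneins and the targets of the transcription factor Nrf2 were followed in bone of the rat calvaria, or skull roof, through a set of 10 genes chosen by name: Mt1a, Mt2A, Hmox1, Nqo1, Gclc, Gclm, Txnrd1, Srxn1, Slc7a11 and Osgin1. The set is 10 of the 34912 gene names on the array. A probe was a member when the gene name in the array files equalled a listed symbol, and where a gene had several probes the one with the highest mean log2 signal over the 12 arrays was used. Mt1a was the exception, since its probe carries the name Mt1, which the RefSeq gene table lists as a synonym under the same accession, and it is called Mt1 here. In both comparisons with uncut bone Mt1, Mt2A and the Txnrd1 probe used were higher and Hmox1 was lower, after drilling Gclc and a second Txnrd1 probe were lower, and between laser and bur 0 of the 9 genes tested differed. The calls of Hmox1, and for bur those of Mt1 and Mt2A, held under all 16 other settings of the analysis. Those of Mt1 and Mt2A for laser, of Txnrd1 and of Gclc did not. All control arrays shared 1 slide, so against control the treatment and the slide cannot be told apart.

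Bone was taken 6 h after surgery from rats 10 weeks old, and RNA from 4 samples of each of 3 groups was labelled with Cy3 and hybridised singly to 12 one-colour arrays. In the laser group a rectangle of 8 by 3 mm was ablated with 3 strokes of an Er:YAG laser, which emits infrared light that water absorbs, at an output of 127 mJ per pulse and a rate of 20 Hz. Bur samples come from bone in which a rotating bur cut a defect of that area. The control bone was left uncut, but its periosteum, the membrane on the bone surface, was taken off, so the controls are operated bone. The labels name no strain and do not say that each sample is its own animal, so the p-values rest on a spread between samples that may be technical.

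Metallothioneins are small cysteine-rich proteins that bind zinc and copper, and their genes are switched on through metal response elements by the zinc-sensing factor MTF-1, and also by glucocorticoids and cytokines. Nrf2, the product of Nfe2l2, is held in the cytoplasm by Keap1 until oxidants or electrophiles modify Keap1. Freed Nrf2 pairs with a small Maf protein and binds antioxidant response elements at genes for glutathione synthesis, thioredoxin reduction, quinone reduction and heme breakdown, while Bach1 occupies many of the same elements as a repressor. Bleeding and injury can release heme, iron and reactive oxygen, all of which can act on these genes.

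The promoters of both metallothionein genes and of Srxn1 are shown because Mt1 and Mt2A held the most matches to the letters of the metal response element and Srxn1 the most to those of the antioxidant response element. They come from the RefSeq promoter table of the rat build GRCr8 and cover the 250 bases before the transcript start, 5′ to 3′ on the gene's strand (the last 120 for Srxn1), with the matches in capitals. Mt1 lies at chr19:10832976-10833225, minus strand, Mt2A at chr19:10838709-10838958, minus strand, and the stretch of Srxn1 at chr3:161064692-161064811, plus strand.
Mt1: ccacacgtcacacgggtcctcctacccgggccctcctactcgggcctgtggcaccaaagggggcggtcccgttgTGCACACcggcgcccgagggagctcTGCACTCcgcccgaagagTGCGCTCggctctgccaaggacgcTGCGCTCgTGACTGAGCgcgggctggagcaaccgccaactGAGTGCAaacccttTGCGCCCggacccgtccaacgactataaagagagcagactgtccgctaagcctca
Mt2A: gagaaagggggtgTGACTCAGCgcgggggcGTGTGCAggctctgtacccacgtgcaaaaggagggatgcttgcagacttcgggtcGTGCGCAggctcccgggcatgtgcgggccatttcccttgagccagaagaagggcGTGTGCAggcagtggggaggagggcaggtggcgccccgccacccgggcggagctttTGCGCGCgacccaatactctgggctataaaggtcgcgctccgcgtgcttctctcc
Srxn1: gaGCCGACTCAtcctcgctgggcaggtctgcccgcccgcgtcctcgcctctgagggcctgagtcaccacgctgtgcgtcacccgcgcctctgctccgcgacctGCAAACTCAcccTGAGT
The metal response core was searched as TGCGCNC or TGCACNC and the antioxidant response core as TGACNNNGC or TGAGNNNGC, on both strands, in windows of 300 bases that run 50 bases past the start. Mt1 held 6 matches to the metal core and Mt2A held 4, and each held 1 match to the antioxidant core. Of 33469 rat promoters of that length, 24.2% held a metal core match and 1.68% held 3 or more. Srxn1 held 3 antioxidant core matches, a number that 0.556% of promoters reached, while 27.1% held at least 1. Its match nearest the start runs 4 bases past the end of the printed stretch.

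Gclm held 2 metal core matches and 1 antioxidant core match, Osgin1 held 2 metal core matches, and of the 2 promoter windows listed for Txnrd1 one held 1 antioxidant core match. The windows of Nqo1, Gclc and Slc7a11 held neither set of letters, and that of Hmox1 was not analysed here. In these promoters no match to one core overlapped a match to the other, but the antioxidant match of Mt2A, TGACTCAGC, and one of Srxn1, TGAGTCAGC, also contain the letters of an AP-1 site, TGACTCA or TGAGTCA. A match describes letters and is not a measured binding site.

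Signals are given as log2 of the processed signal minus the log2 of the array's 75th percentile, so that a value of 0 is the level of the probe at that percentile and a difference of 1 is a doubling. On each array 67.8% to 73.7% of spots were marked by the scanner software as well above background, 0 spots were saturated, and the 75th percentile lay between 197.2 and 383.2 signal units. Of the 10 genes, 9 passed the filter on dim probes and entered the test over 22924 genes. All 10 markers of osteoblasts and osteocytes were well above background on every array. The 4 control arrays shared 1 slide, and the treated arrays lay on 2 others with 2 laser and 2 bur arrays each, so in every comparison with control the treatment and the slide cannot be told apart. Spike-in spots, which carry RNA added at labelling, had a mean log2 processed signal, before scaling, of 4.92 to 5.34 on the control arrays and of 8.13 to 8.83 on the treated arrays, and the part of this gap in the differences was not tested.

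Differences from control were common over the whole array. At an adjusted p under 0.05 (limma, Benjamini-Hochberg over all genes tested), 49.8% of genes passed for laser against control, 32.2% higher and 17.6% lower, and 51% passed for bur against control, 32.7% higher and 18.3% lower. The median difference of all genes was 0.21 and 0.23 on the log2 scale, so a gene at the array median already lay above 0. That median fell to between 0.03 and 0.10 for laser and between -0.01 and 0.15 for bur under other scalings, and the share of calls that were higher moved from 64.7% to between 55.4% and 58.0% for laser and from 64.2% to between 51.6% and 57.1% for bur. Against this background 4 of the 9 genes passed for laser against control, 3 higher and 1 lower, with a median log2 difference of 0.27, and for these 4 genes the 2 groups did not overlap, as for 48.6% of the genes with a value on all arrays of both groups. For bur against control 5 of the 9 passed, 3 higher and 2 lower, with a median of 0.22, and those 5 did not overlap with control, as for 46% of such genes. The shares are near those of all genes, so the count itself does not set the genes apart, and both comparisons use the same 4 control arrays.

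**Figure D1:**
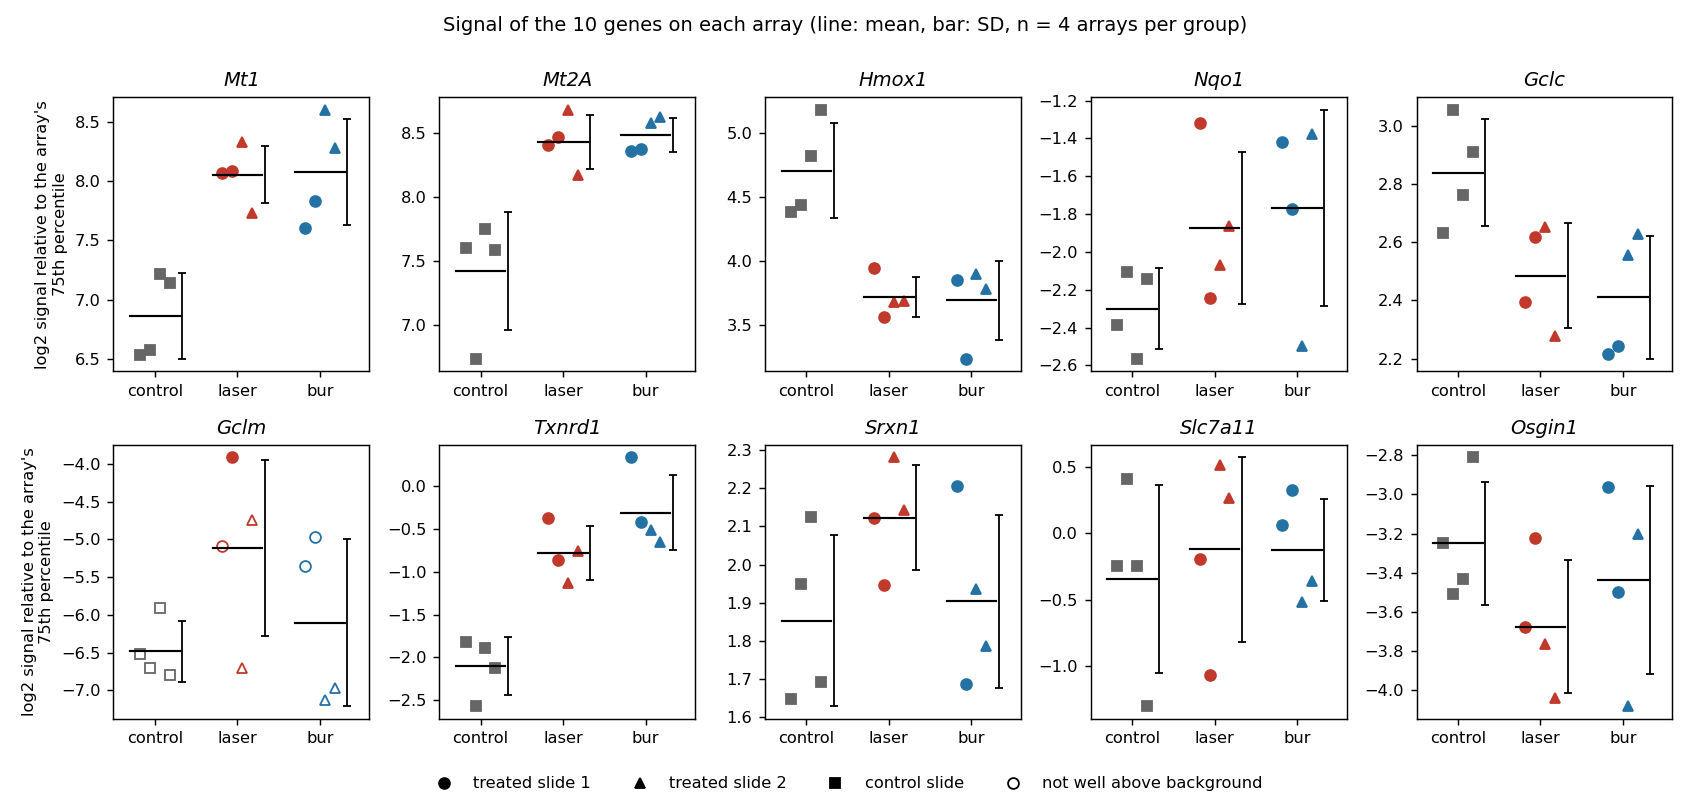
Log2 signal relative to the array's 75th percentile (vertical axis, a separate range per gene) for the 10 genes on each of the 12 arrays, by group, with the slide shown by the marker; lines are group means and bars are SD (n = 4), and open markers are signals not well above background. Mt1, Mt2A and Txnrd1 lie above all 4 control arrays on every treated array, Hmox1 lies below them, and Gclm has 1 array well above background.

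The metallothioneins were higher in both kinds of wound. The Mt1 probe read 6.53, 6.57, 7.21 and 7.14 on the control arrays, 8.07, 8.09, 8.33 and 7.73 on the laser arrays and 7.61, 7.83, 8.60 and 8.28 on the bur arrays. Every treated array lay above the highest control array, and the laser and bur arrays overlapped. The log2 difference was 1.19 ± 0.24 (SE, n = 4 per group), or 2.28-fold, for laser (limma, adjusted p = 0.00276) and 1.21 ± 0.24, or 2.32-fold, for bur (adjusted p = 0.00252). The Mt1 value comes from 10 spots per array, where the other genes have 1 or, for Gclc, 2. Bone cell markers were higher on the same arrays, 9 of 10 in each comparison, with a mean log2 signal over the list of 2.27 to 2.93 on control, 3.74 to 4.04 on laser and 3.61 to 4.18 on bur arrays. The exception for laser was Sost, which was lower at -0.80 (limma, adjusted p = 0.0460) but higher at 0.88 for bur. For bur it was Ibsp, at 0.23 and not past the threshold (adjusted p = 0.268). The part of bone cells in the higher values of Mt1, Mt2A and the other genes that were higher was not tested.

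Mt2A, the second ubiquitous metallothionein, showed the same order of groups. Its probe read 7.60, 6.73, 7.75 and 7.59 on the control arrays, 8.40, 8.46, 8.68 and 8.17 on the laser arrays and 8.36, 8.38, 8.57 and 8.62 on the bur arrays. The groups did not overlap with control, and control replicate 2 was far below the other controls. The log2 difference was 1.01 ± 0.21 for laser (limma, adjusted p = 0.00292) and 1.07 ± 0.21 for bur (adjusted p = 0.00225), and without control replicate 2 it was 0.78 and 0.84, still past the threshold. The laser differences depended on the scaling. With quantile normalization they were 0.67 (adjusted p = 0.0505) for Mt1 and 0.49 (adjusted p = 0.135) for Mt2A, and in the authors' deposited normalized table Mt2A differed by 0.47 (adjusted p = 0.163), while the bur differences of both genes passed under all 16 other settings.

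The 2 probes lie 6143 bases apart on chromosome 19 in the array design's build, RGSCv3.4, Mt1 at chr19:11261631-11261690 and Mt2A at chr19:11267834-11267893, both on the minus strand. The inner 30 bases of each probe are shown, since family members can share sequence.
Mt1 probe: cccgttttctaccgagcatgtgaataataa
Mt2A probe: tgaccggttctccacacttttttctataaa
The gene whose pattern was most like that of Mt1 over the 12 arrays, measured as the root mean square difference in log2 signal after each gene's own mean was subtracted, was a transcript known in the files only as ENSRNOT00000038212, at 0.10. Its probe lies on the same strand 321 bases from the Mt1 probe, at chr19:11262012-11262071, and it was higher by 1.21 for laser (limma, adjusted p = 0.00457) and 1.15 for bur (adjusted p = 0.00588). Next came an unnamed probe placed on the X chromosome at 0.19 and Fam43a at 0.23. The inner 30 bases of the ENSRNOT00000038212 probe and of the X chromosome probe hold repeated cysteine codons, tgc. Both may therefore read metallothionein RNA, that of Mt1 included, and were not shown to be separate genes. Over 60 aligned bases these 2 probes matched each other at 30, with a longest shared run of 11.

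Other genes of metal handling did not follow the metallothioneins as a group. Of 8 tested, 1 was higher and 2 were lower for laser, and 0 were higher and 1 was lower for bur, with medians of 0.17 and -0.16. Slc30a1, the zinc exporter of the cell surface and a known target of MTF-1, fell, with log2 differences of -0.97 for laser (limma, adjusted p = 0.00176) and -0.86 for bur (adjusted p = 0.00331). It read -0.10, 0.32, 0.28 and 0.21 on the control arrays and -0.38 at most on a treated array, so the groups did not overlap. The zinc importer Slc39a10 was higher by 0.63 for laser (adjusted p = 0.0116), and Mt3, a metallothionein best known from brain, was lower with a log2 difference of -1.12 for laser (adjusted p = 0.0484) with overlapping groups. For bur Slc39a10, at 0.43 (limma, adjusted p = 0.0582), and Mt3, at -0.75 (adjusted p = 0.162), had the same signs but did not pass. Neural and glial markers were lower too, 5 of 7 in each comparison, with a mean log2 signal over the list of -2.30 to 0.31 on control, -4.87 to -3.59 on laser and -5.42 to -0.90 on bur arrays. The part of those cells in the Mt3 value was not tested. For bur the count of the metal list was 2 in place of 1 without control replicate 1 or 3 or bur replicate 3 or 4 and under 6 of the 16 other settings.

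Heme oxygenase 1, Hmox1, the enzyme that opens the heme ring and releases iron, biliverdin and carbon monoxide, was lower in both kinds of wound. Its probe read 4.38, 4.44, 4.82 and 5.18 on the control arrays, 3.94, 3.56, 3.68 and 3.69 on the laser arrays and 3.85, 3.23, 3.90 and 3.77 on the bur arrays. All 8 treated arrays lay below the lowest control array. The log2 difference was -0.99 ± 0.21 for laser (limma, adjusted p = 0.00291) and -1.02 ± 0.21 for bur (adjusted p = 0.00255), which is 1.99-fold and 2.02-fold lower. Hmox1 passed with this sign under all 16 other settings, with values from -1.31 to -0.95 for laser and from -1.28 to -0.87 for bur, and without any 1 array.

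Most erythroid and some macrophage markers, of cells that handle heme, were lower on the same arrays. Of 9 macrophage markers tested, 0 were higher and 5 were lower for laser and 4 for bur, among them the hemoglobin receptor Cd163, with log2 differences of -1.28 and -1.04, and Csf1r, with -0.77 and -0.81. Cd14, at 0.74 and 0.39, Cd68, at 0.16 and 0.25, and C1qb, at 0.14 and 0.27, had positive differences that did not pass. The mean log2 signal over the macrophage list was 1.14 to 1.54 on control, 0.83 to 1.35 on laser and 0.68 to 1.43 on bur arrays, and Vsig4 was well above background on 1 array only. Of 8 erythroid markers 7 were lower in each comparison, with a mean over the list of 4.87 to 5.69 on control, -0.56 to 3.55 on laser and 1.43 to 3.96 on bur arrays. The lowest erythroid value, -0.56, was on laser replicate 1, where Hmox1 had its highest laser value. Fewer cells of a type and less RNA per cell cannot be told apart in whole bone, and the part of these cells in the Hmox1 value was not tested.

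The heme and iron list around Hmox1 had genes past the threshold in both directions, with a small margin toward lower. In all 5 genes passed for laser and 4 for bur, near the shares of all genes, 49.8% and 51%. Of its 9 genes tested, 2 were higher and 3 lower for laser and 1 was higher and 3 lower for bur, with medians of -0.23 and -0.25. Hmox2, the constitutive heme oxygenase, was higher by 0.43 for laser (limma, adjusted p = 0.0113) and 0.56 for bur (adjusted p = 0.00308), opposite in sign to Hmox1. The transferrin receptor Tfrc fell, with log2 differences of -2.44 (adjusted p = 0.00844) and -2.89 (adjusted p = 0.00362), and the heme and drug exporter Abcg2 fell, with log2 differences of -1.24 (adjusted p = 0.00233) and -1.15 (adjusted p = 0.00342). Tfrc read 4.99 to 6.06 on control arrays and 1.1002 on laser replicate 1 against 3.63 to 3.79 on the other laser arrays. Erythroid markers were also lowest on laser replicate 1, and the part of erythroid cells in the Tfrc values was not tested. The laser count of the list fell from 5 to 3 without control replicate 4, with median centring and with slide as a block, and the bur count moved from 4 to 7 with quantile normalization and to 2 with the treated arrays of slide 2 alone.

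Txnrd1, the cytosolic thioredoxin reductase that uses NADPH to keep thioredoxin reduced, had the largest difference of the set on the probe used, but a second probe was lower for bur. The probe used read -1.82, -2.57, -1.89 and -2.12 on the control arrays, -0.38, -0.86, -1.13 and -0.76 on the laser arrays and 0.34, -0.42, -0.51 and -0.65 on the bur arrays. The treated arrays all lay above the controls. The log2 difference was 1.32 ± 0.25 for laser (limma, adjusted p = 0.00179) and 1.79 ± 0.25 for bur (adjusted p = 0.000414).

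The second probe read -1.24, -1.38, -0.85 and -1.04 on the control arrays, -1.41, -1.49, -1.70 and -1.18 on the laser arrays and -1.74, -2.29, -2.41 and -1.77 on the bur arrays. On it the bur arrays lay below every control array and the laser arrays overlapped with control. With 30121 probes tested as separate features, its log2 difference was -0.32 ± 0.19 for laser (limma, adjusted p = 0.187) and -0.92 ± 0.19 for bur (adjusted p = 0.00290). Both probes were well above background on all 12 arrays and carry the same transcript accession, the used one at transcript base 1472 and the second at base 2409, at chr7:23065196-23065255 and chr7:23055528-23055561 (RGSCv3.4, minus strand). The placement given for the second probe covers only part of its 60 bases. The inner 30 bases of both probes are shown because the reading turns on which of them is taken.
Txnrd1 probe used: taacaacaaatgttatgcaaaagtcgtctg
Txnrd1 second probe: tactcagactcattgcatggctcttgggta
With the mean of both probes the differences were 0.50 (adjusted p = 0.0539) and 0.43 (adjusted p = 0.0850), neither past the threshold. In the authors' deposited table of comparisons the used probe's log2 fold change was 0.465 (adjusted p = 0.0134) for laser and 0.381 (adjusted p = 0.0309) for bur, well under the values here. In a limma fit of their deposited normalized table the bur difference, again 0.381, was not past the threshold (adjusted p = 0.0632). A direction for Txnrd1 as a gene is therefore not given.

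**Figure D2:**
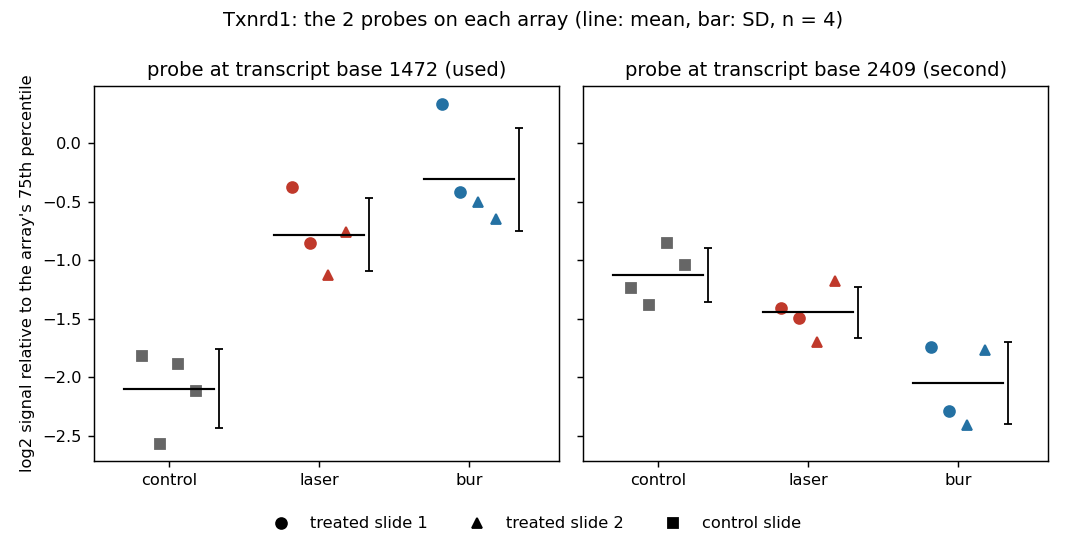
Log2 signal relative to the array's 75th percentile (vertical axis) of the probe at transcript base 1472, left, and the probe at base 2409, right, on each array by group; markers show the slide, lines are means and bars are SD (n = 4). The left probe is higher on all treated arrays, while on the right the bur arrays, at -1.74 to -2.41, lie below the controls.

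The genes whose pattern was most like that of the used Txnrd1 probe were Fosl2, an AP-1 subunit, at a root mean square difference of 0.14, the transcript ENSRNOT00000091732 at 0.19 and S100a6, a calcium-binding protein, at 0.22. Fosl2 was higher by 1.11 for laser (limma, adjusted p = 0.0131) and 1.64 for bur (adjusted p = 0.00183). S100a6 was higher by 1.45 (adjusted p = 0.000973) and 1.60 (adjusted p = 0.000620). On the Txnrd1 probe used, on Fosl2 and on S100a6 alike the highest of all arrays was bur replicate 1.

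Among the other thioredoxin, peroxiredoxin, superoxide dismutase and catalase genes more fell than rose. Of 14 tested, 2 were higher and 5 lower for laser and 3 were higher and 6 lower for bur, with medians of -0.30 and -0.18. Catalase, Cat, which breaks down hydrogen peroxide in peroxisomes, fell, with log2 differences of -1.63 (limma, adjusted p = 0.000950) and -1.87 (adjusted p = 0.000499). The mitochondrial peroxiredoxin Prdx3 fell, with log2 differences of -1.61 and -1.99. Prdx2, abundant in red cells, fell, with log2 differences of -1.38 for laser (limma, adjusted p = 0.00267) and -1.58 for bur (adjusted p = 0.00138). Prdx4, the peroxiredoxin of the endoplasmic reticulum, was higher by 1.24 for laser (limma, adjusted p = 0.000409) and 0.89 for bur (adjusted p = 0.00222). Prdx2 was lowest of all arrays on laser replicate 1, the array with the lowest erythroid markers, and the part of erythroid cells in these values was not tested. Cat read 0.31, 0.93, 0.39 and 0.88 on the control arrays and -1.64, -0.96, -0.53 and -0.86 on the laser arrays. The bur arrays read -1.39, -1.70, -0.71 and -1.14, and neither treated group overlapped with control. With the treated arrays of slide 2 alone the list's counts were 4 for laser and 4 for bur.

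Glutathione is made from cystine taken up through Slc7a11, joined to glutamate by the ligase of the catalytic subunit Gclc and the modifier subunit Gclm. Gclc read 2.63, 3.06, 2.76 and 2.91 on the control arrays, 2.39, 2.62, 2.65 and 2.28 on the laser arrays and 2.22, 2.24, 2.55 and 2.63 on the bur arrays. Laser replicate 3 lay above the lowest control array, and the highest bur array lay just below that control array. The log2 difference was -0.43 ± 0.15 for bur (limma, adjusted p = 0.0322) and -0.35 ± 0.15 for laser (adjusted p = 0.0673, not past the threshold). The call depended on the settings. For bur it held under 11 of 16 other settings and was lost without control replicate 2, 3 or 4 or bur replicate 1 or 2, with adjusted p from 0.0503 to 0.0904. For laser it was gained under 4 of the 16 settings and without control replicate 1 (-0.42, adjusted p = 0.0497).

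Gclm was well above background on 1 array, laser replicate 2, and on 0 control and 0 bur arrays. It was not tested, and no fold is given because the mean of the laser arrays, -5.11, lay under the lowest level measurable on the control arrays, a mean of -4.81.

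Slc7a11, the cystine and glutamate antiporter, spread more within groups than between them. It read -0.24, 0.41, -0.25 and -1.30 on the control arrays, -0.19, -1.07, 0.51 and 0.26 on the laser arrays and 0.06, 0.32, -0.52 and -0.36 on the bur arrays. The 3 groups overlapped, with log2 differences of 0.22 for laser (95% interval -0.65 to 1.103; limma, adjusted p = 0.656) and 0.22 for bur (-0.66 to 1.102; adjusted p = 0.652). Its second probe was well above background on 3 arrays and was not tested. Both differences turned negative without control replicate 4, at -0.09 and -0.10.

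The other glutathione genes moved in both directions. Of 17 tested, 3 were higher and 4 lower for laser and 2 were higher and 4 lower for bur, with medians of 0.24 and 0.18. Gpx2, a glutathione peroxidase best known from epithelia and a known Nrf2 target, was higher by 2.23 (limma, adjusted p = 0.000569) and 1.74 (adjusted p = 0.00212). It read -1.57, -1.47, -2.07 and -2.54 on the control arrays and -0.68 or more on every treated array. The glutathione transferases Gsta4 and Mgst1 did the opposite. Gsta4 fell, with log2 differences of -1.504 (adjusted p = 0.00229) and -1.60 (adjusted p = 0.00166) and Mgst1 fell, with log2 differences of -1.88 (adjusted p = 0.00410) and -2.21 (adjusted p = 0.00181). Without control replicate 2, and with slide as a block, the laser count fell from 7 to 3.

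Nqo1, the quinone reductase that serves as the standard readout of Nrf2, did not pass in either comparison. Its probe read -2.39, -2.11, -2.56 and -2.14 on the control arrays, -1.32, -2.24, -2.07 and -1.86 on the laser arrays and -1.42, -1.77, -2.50 and -1.38 on the bur arrays. Most treated arrays lay above the controls, but laser replicate 2 and bur replicate 3 lay among them. The log2 difference was 0.43 for laser (95% interval -0.16 to 1.02; limma, adjusted p = 0.2002) and 0.53 for bur (-0.05 to 1.12; adjusted p = 0.114), and without bur replicate 3 it was 0.78 (adjusted p = 0.0158).

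Srxn1, sulfiredoxin, which restores over-oxidised peroxiredoxins, and Osgin1, an Nrf2-responsive growth inhibitor, also did not pass. Srxn1 read 1.65, 1.95, 2.12 and 1.69 on the control arrays, 2.12, 1.95, 2.28 and 2.14 on the laser arrays and 2.21, 1.69, 1.94 and 1.79 on the bur arrays. Its differences were 0.27 (95% interval -0.07 to 0.60; limma, adjusted p = 0.160) and 0.05 (-0.28 to 0.39; adjusted p = 0.791). Its arrays overlapped between all groups, and a relation between promoter matches and signal was not tested. Osgin1 was dim, at -3.25, -3.51, -3.43 and -2.81 on the control arrays, -3.68, -3.22, -3.76 and -4.04 on the laser arrays and -2.96, -3.50, -4.08 and -3.20 on the bur arrays. It differed by -0.43 (-0.997 to 0.14; adjusted p = 0.188) and -0.19 (-0.76 to 0.38; adjusted p = 0.556).

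**Figure D3:**
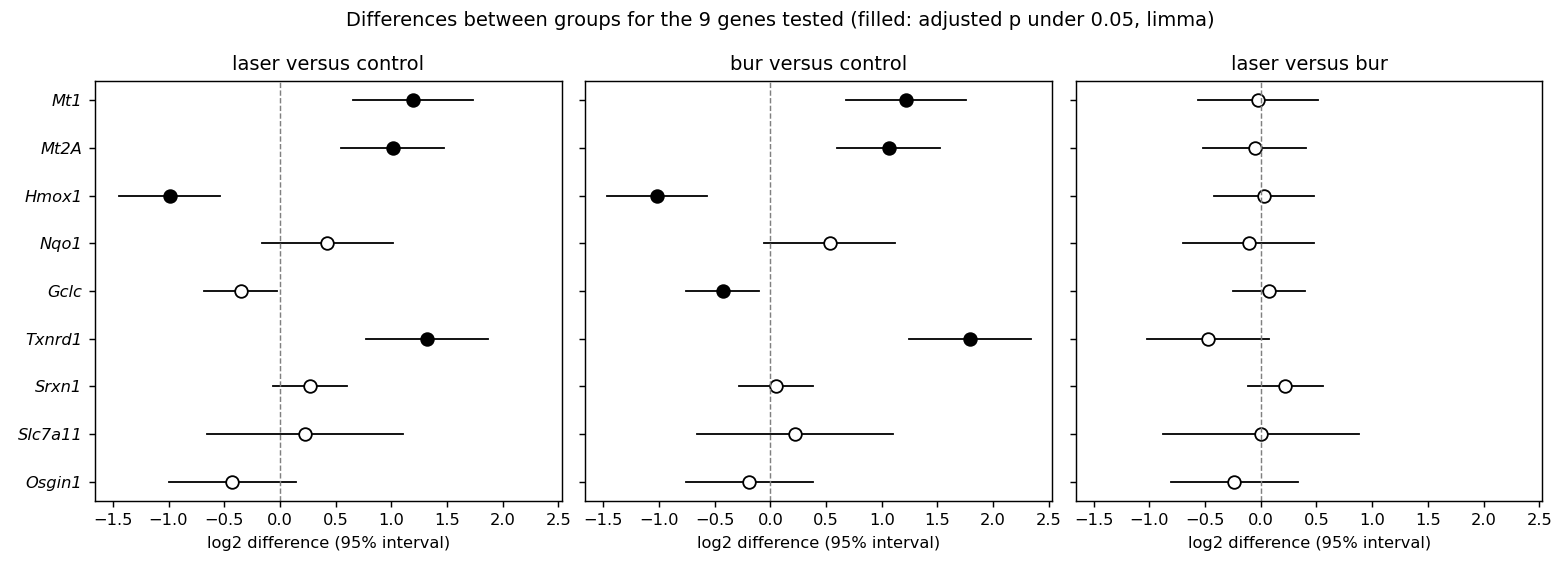
Log2 difference with its 95% interval from limma (horizontal axis) for the 9 genes tested, in laser against control, bur against control and laser against bur; filled points have an adjusted p under 0.05. Filled points on the left of 0 are Hmox1 in both comparisons with control and Gclc for bur, those on the right are Mt1, Mt2A and Txnrd1 (probe used), and the laser against bur panel has 0 filled points.

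The genes that act on Nrf2 itself were higher more often than lower. Of 9 tested, 4 were higher and 1 was lower in each comparison, with medians of 0.18 and 0.25, near those of all genes, and on the same arrays as the higher bone cell markers. Nfe2l2, which encodes Nrf2, was higher by 0.72 for laser (limma, adjusted p = 0.00116) and 0.51 for bur. It read 2.65, 2.55, 2.58 and 2.78 on the control arrays, 3.24, 3.23, 3.41 and 3.56 on the laser arrays and 3.21, 2.92, 3.17 and 3.31 on the bur arrays, with no overlap. The related factor Nfe2l1 was higher by 0.67 for laser (limma, adjusted p = 0.00234) and 0.74 for bur (adjusted p = 0.00149). The small Maf genes went opposite ways. Maff was higher by 1.72 (adjusted p = 0.000186) and 1.68 (adjusted p = 0.000238) and Mafk fell, with log2 differences of -1.29 (adjusted p = 0.000595) and -1.23 (adjusted p = 0.000796).

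Genes that supply NADPH, the reductant that Txnrd1, Nqo1 and glutathione reductase use, were more often lower than higher. Of 6 tested, 1 was higher and 4 were lower for laser and 1 was higher and 2 were lower for bur, with medians of -0.42 and -0.44. Pgd, of the pentose phosphate pathway, fell, with log2 differences of -2.11 (limma, adjusted p = 6.36e-05) and -2.30 (adjusted p = 0.000102), and Tkt fell, with log2 differences of -0.75 (adjusted p = 0.00378) and -0.61 (adjusted p = 0.0107). Me1, cytosolic malic enzyme, was higher by 1.07 (adjusted p = 0.000669) and 0.65 (adjusted p = 0.00827). Pgd read 0.87, 1.25, 1.03 and 1.26 on the control arrays and -0.90 at most on a treated array. Neutrophil markers, 5 of 8 lower in each comparison, had a mean over the list of 4.22 to 4.59 on control, 1.76 to 3.28 on laser and 1.54 to 3.32 on bur arrays. S100a8, at -0.27 and -0.41, S100a9, at -0.49 and -0.62, and Camp, at -0.66 and -0.87, did not pass and overlapped with control. The part of neutrophils in the Pgd value was not tested. The bur count of 3 depended on the scaling, at 5 with quantile normalization, with median centring and in the authors' deposited normalized table and at 6 with the percentile over probes detected on every array, and the laser count of 5 was 3 with the treated arrays of slide 2 alone.

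Among genes of quinone, carbonyl and epoxide detoxification, 4 of 9 were higher and 3 lower for laser and 2 were higher and 2 lower for bur, with medians of 0.12 and 0.32. The carbonyl reductase Cbr1 was higher by 1.97 (limma, adjusted p = 0.00148) and 1.71 (adjusted p = 0.00307). Aldh3a1, an aldehyde dehydrogenase, was higher by 1.17 for laser (limma, adjusted p = 0.0317) and 1.61 for bur (adjusted p = 0.00723). Nqo2 was higher by 0.75 for laser (limma, adjusted p = 0.0122) but did not pass for bur, at 0.52 (adjusted p = 0.0555). The epoxide hydrolase Ephx1 fell, with log2 differences of -0.998 for laser (limma, adjusted p = 0.00452) and -0.75 for bur (adjusted p = 0.0175). Akr7a3 fell, with log2 differences of -2.11 for laser (limma, adjusted p = 0.0143) and -2.51 for bur (adjusted p = 0.00610). Without control replicate 3 or laser replicate 3, and with slide as a block, the laser count fell from 7 to 4, and with the treated arrays of slide 2 alone to 2. Over all 7 lists 17 of 72 genes were higher and 22 lower for laser (54.2% past the threshold) and 13 were higher and 19 lower for bur (44.4%). The shares past the threshold were near the background, but the lists had more lower than higher genes where the whole array had more higher ones. That contrast was not tested.

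**Figure D4:**
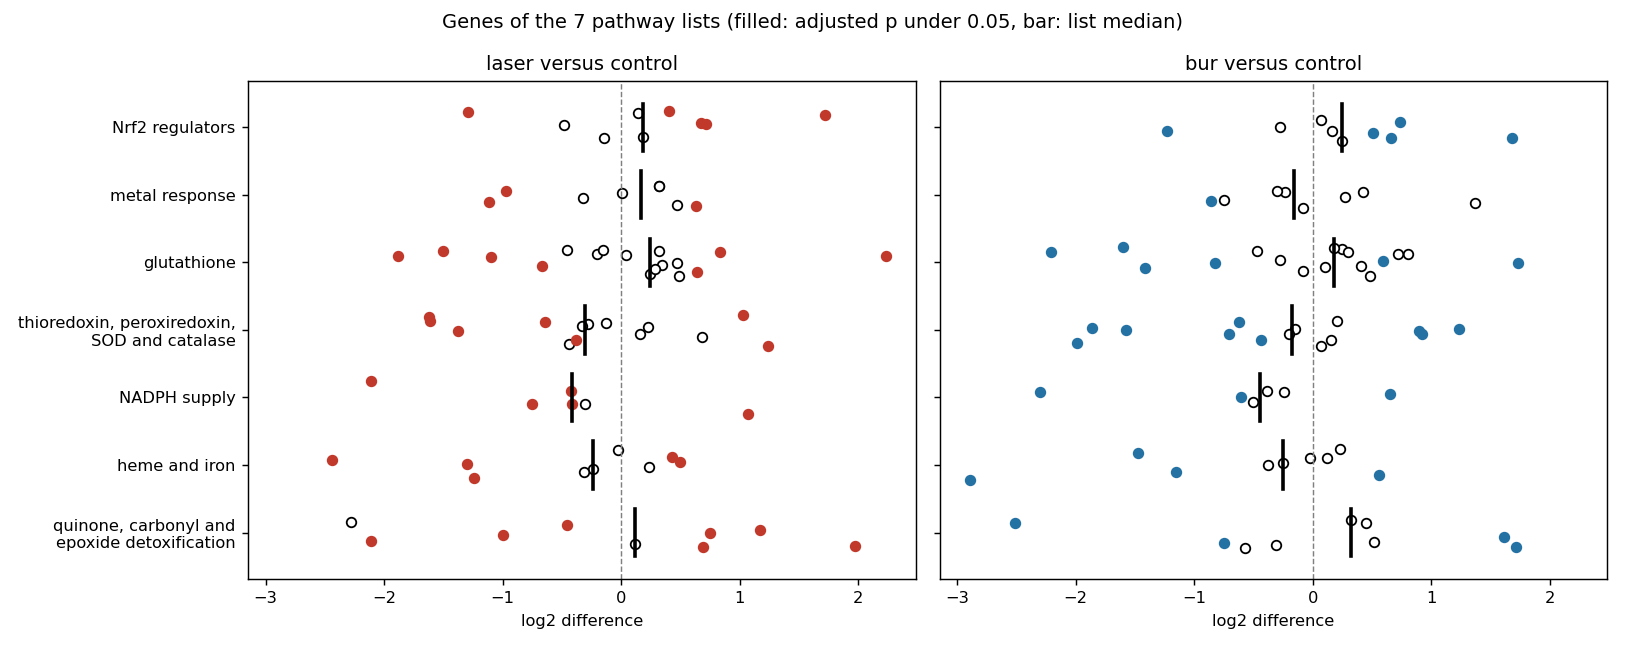
Log2 difference from control (horizontal axis) of each gene tested in the 7 pathway lists, laser left and bur right; filled points have an adjusted p under 0.05 and black bars are list medians. Each list holds points on both sides of 0, and the NADPH supply list has the lowest median, -0.42 for laser and -0.44 for bur.

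Laser and bur were compared directly to ask whether the way of cutting matters for these genes. In that comparison 0.00436% of all genes passed, 1 gene and not one of this set, and 0 of the 9 genes passed. The groups overlapped for all 9, while 3.5% of genes with a value on all arrays of both groups had groups that did not. The 95% intervals, per gene and under the scaling used, show which differences the spread between samples allows. They are too narrow for a difference between animals if that spread is technical. They ran from -0.56 to 0.51 for Mt1, from -0.52 to 0.41 for Mt2A and from -0.42 to 0.48 for Hmox1. Of the 9 probes used that of Txnrd1 had the largest difference, -0.47 (-1.02 to 0.07; limma, adjusted p = 0.824). The second Txnrd1 probe differed the other way, by 0.61 ± 0.19 (limma over 30121 probes, adjusted p = 0.511), with every laser array above every bur array. Gclc had an interval from -0.25 to 0.40 and Srxn1 one from -0.12 to 0.55, and those of Nqo1, Osgin1 and Slc7a11 were wider. Of the 72 pathway genes 0 passed as well. The gene with the smallest p in its list was the zinc transporter Slc30a4 at 0.77 (limma, adjusted p = 0.507), the repressor Bach1 at -0.64 (adjusted p = 0.573) and glutathione reductase, Gsr, at -0.38 (adjusted p = 0.616). In the other lists it was Me1 at 0.41, the ferritin light chain Ftl1 at 0.38, mitochondrial thioredoxin, Txn2, at 0.29 and the retinal dehydrogenase Aldh1a1 at -1.71, with adjusted p from 0.712 to 0.849.

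Each treated slide held 2 laser and 2 bur arrays, so laser minus bur can be read within a slide. For Mt1 it was 0.36 on one slide and -0.41 on the other, for Mt2A 0.07 and -0.17, for Hmox1 0.21 and -0.15 and for Gclc 0.28 and -0.13. The sign of these 4 genes turned between slides. The Txnrd1 probe used kept its sign, at -0.58 and -0.37, and the second probe kept the opposite one, at 0.56 and 0.65. The sign also held for Srxn1 at 0.09 and 0.35, Nqo1 at -0.19 and -0.03 and Osgin1 at -0.22 and -0.26.

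**Figure D5:**
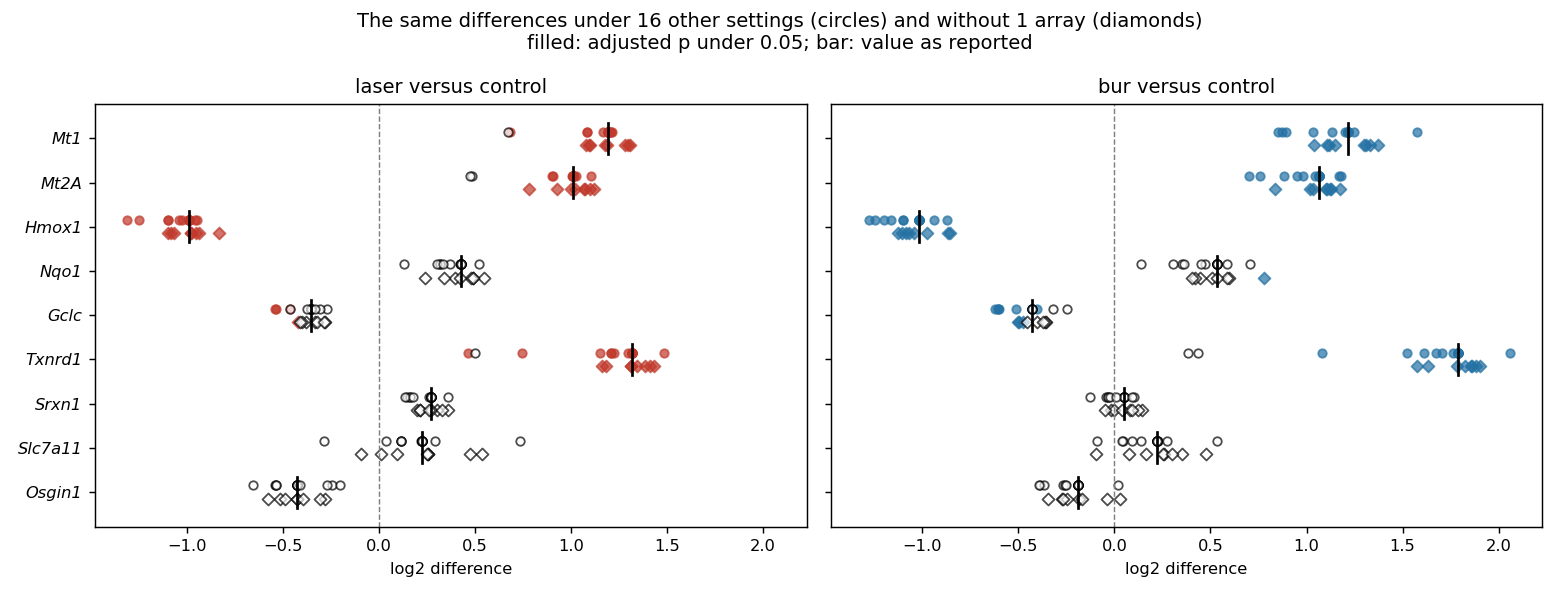
Log2 difference from control (horizontal axis) of the 9 genes tested under 16 other settings (circles) and without 1 array (diamonds), laser left and bur right; filled markers have an adjusted p under 0.05 and black bars are the values reported. Hmox1 is filled and below 0 throughout, Txnrd1 spreads from 0.38 to 2.06 for bur, and Srxn1, Slc7a11 and Osgin1 have markers on both sides of 0 for bur.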

How the data were processed

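RNA of 12 samples was measured on one-colour Agilent arrays, with groups taken from the sample titles. The authors deposited the intensity of every spot from Agilent Feature Extraction, version 11.0.1.1 per the submitters' processing notes, after background subtraction. They also deposited log2 normalized values and, per comparison, log2 fold changes with p-values. Which model gave these is not given in the sources used.

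Control and outlier-marked spots were left out, spots of a probe were averaged in log2, and the 75th percentile of each array was taken off. Probes well above background on at least 4 of 12 arrays were kept. Differences were fitted over all 12 arrays with lmFit and eBayes of limma 3.58.1 (R 4.3.3), two-sided, and adjusted by Benjamini-Hochberg over 22924 genes. This scaling hides a shift shared by most genes. The number of arrays limits precision. The code was tested on simulated data.

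The genes and lists were chosen with earlier results of these data known. Named were all 10 genes, up to 3 genes per list and comparison with the smallest adjusted p among those past the threshold, else the one with the smallest p, and the 3 genes most like the 2 tested members of largest SD. Alternatives covered scaling, background correction, filter, probes, model, blocks, slides and leaving out each array. The test of the slide difference was chosen after its values were seen.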

Additional observations from a re-analysis of the deposited data

Results flagged for a closer look

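On the Mt2A probe control replicate 2 read 6.73 on the log2 scale relative to the array's 75th percentile, while the other 3 control arrays read 7.59 to 7.75. Its gap to the nearest control array was above Dixon's 95% critical value for 4 samples. It was the only one of 30 groups of 4 arrays looked at (10 genes in 3 groups), and chance sets apart about 1 group in 20. On Mt1 the same array read 6.57 and was not apart, with control replicate 1 at 6.53. Control replicate 2 also had the highest control means of skeletal muscle (4.29), erythroid (5.69) and neural and glial markers (0.31). Its bone cell mean, 2.27, was the lowest of the controls, while its adipocyte mean, -0.51, lay among theirs. The part of tissue content in its Mt2A value was not tested.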

How the results depend on the processing

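Counts of genes of the set past the threshold stayed within 1.5 times, at 4 to 5 for laser against control, 4 to 6 for bur against control and 0 for laser against bur without any 1 array. For all genes the ranges without 1 array were 9163 to 11210, 9555 to 11817 and 0 to 1. For laser against bur the count of all genes was 1 as reported, 5 with normexp, 0 with the mean of a gene's probes, 0 with only the 2 groups compared, 10 with slide as a block, 2 with an intensity trend and 0 with the treated arrays of either slide alone. Under the replicate block the set gave 4, 5 and 0 and all genes 12521, 12883 and 1, and the metal list 5 in place of 3 for laser against control. Correlations of same-numbered samples were all above 0. They ran from 0.09 to 0.39, 0.09 to 0.26 and 0.05 to 0.58 in the 3 comparisons. Of 8 arrays 5, 6 and 6 were closest to their own number. The fit reported did not take the numbers as pairs, and these values do not exclude pairing.

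The calls that changed are given beside each gene above. Signs turned only among differences that had not passed, and the cause was not tested. Srxn1 for bur became -0.043 with quantile normalization, -0.032 with the percentile taken over probes detected on every array, -0.13 with median centring, -0.034 in the authors' deposited table and -0.024 with array weights. In the treated arrays of slide 1 alone Slc7a11 was -0.28 for laser and Osgin1 0.018 for bur, and in those of slide 2 alone Slc7a11 was -0.091 for bur. For laser against bur the turned values were as follows. Quantile normalization gave -0.0023 for Hmox1 and -0.0086 for Slc7a11, the other percentile -0.024 for Slc7a11, and median centring 0.049 for Mt1 and 0.020 for Mt2A. Normexp gave -0.0053 for Hmox1, -0.00031 for Slc7a11 and 0.012 for Osgin1. The authors' deposited table gave -0.030 for Hmox1 and 0.084 for Txnrd1, the mean of probes 0.066 for Txnrd1, and array weights 0.0075 for Mt1. Slide 1 alone gave 0.36 for Mt1, 0.065 for Mt2A and -0.82 for Slc7a11, and slide 2 alone -0.15 for Hmox1 and -0.13 for Gclc. Without 1 array, Slc7a11 ranged from -0.094 to 0.54 for laser and from -0.096 to 0.47 for bur, Srxn1 from -0.050 to 0.14 and Osgin1 from -0.34 to 0.027 for bur. For laser against bur the ranges were -0.18 to 0.15 for Mt1, -0.14 to 0.033 for Mt2A, -0.12 to 0.098 for Hmox1, -0.35 to 0.022 for Nqo1 and -0.21 to 0.32 for Slc7a11.

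Signal over background limits Gclm and the second Slc7a11 probe, which could not be tested, and normexp gave smaller differences on the Txnrd1 probe used, at 0.74 for laser and 1.08 for bur.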

Other observations

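Slc7a11 differed between laser and bur in opposite directions on the 2 treated slides. On the first slide laser read -0.19 and -1.07 and bur 0.06 and 0.32, and on the second laser read 0.51 and 0.26 and bur -0.52 and -0.36. Laser minus bur was thus -0.82 on one slide and 0.82 on the other, with no overlap on either. In a limma fit of treatment and slide over the 8 treated arrays and all 22924 genes the difference between slides was -1.64 (adjusted p = 0.9998), so it did not pass, and 0 genes passed at an adjusted p under 0.05, with 589 at an unadjusted p under 0.05. The mean over both slides that the report gives for Slc7a11 therefore averages values of opposite sign.

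The median difference from control lay further above 0 among dim and bright probes than among those between. With genes ranked by mean signal and cut into 5 equal groups, the median log2 difference for laser was 0.56 in the dimmest, 0.01 in the middle and 0.32 in the brightest group, and for bur it was 0.69, 0.02 and 0.30. In the middle group higher and lower genes were about equally common for laser, at 25.0% and 24.2%. In the dimmest group 33.9% were higher and 12.1% lower for laser. Mt1, Mt2A, Hmox1 and Gclc are all in the brightest group, where 43.8% of genes were higher and 12.3% lower for laser, and the part of signal level in the values of these genes was not tested.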
